A study of Mus musculus with 7 samples.

Results

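The insulin-like growth factor 2 (Igf2) axis was followed in whole mouse bladder at 2 ages through 8 genes. They are the ligands Igf1 and Igf2, the non-coding RNA H19 that lies beside Igf2, the receptors Igf1r and Igf2r, and the Igf2 mRNA-binding proteins Igf2bp1, Igf2bp2 and Igf2bp3. A gene was represented by the probe sets that the platform annotation assigns to it alone, and among these the one with the highest mean over the 7 arrays stood for the gene. By this rule 6 of the 8 genes had a probe set, 23 probe sets in all, out of 18193 genes and 45037 probe sets on the array. The single H19 probe set is annotated to both H19 and Mir675, the microRNA gene that RefSeq places inside H19, so it is given separately as H19/Mir675. No probe set names Igf2bp2, which was not analysed here.

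Each bladder sample was the whole organ, grossly dissected from 1 FVB/N male carrying an EGFP reporter driven by the promoter of SMGA (Actg2, smooth muscle gamma-actin), a gene of visceral smooth muscle. There were 3 adult arrays (Theiler stage 28; tissue kept in liquid nitrogen) and 3 arrays from postnatal day 1 (Theiler stage 27; tissue kept in a freezer), called newborn bladder here, so age and storage cannot be told apart. The seventh array held whole wild-type FVB/N newborns, a pool of 4 males and 4 females; its title speaks of bladders, but its source and protocol name the whole mouse. All 6 bladder samples therefore carry the reporter, and no wild-type bladder was measured. The labels do not say whether the males came from separate litters, so p-values measure only the spread between single samples.

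The markers bore out the tissues. All 8 smooth muscle and all 8 urothelial markers lay above the array median on every bladder array. In the whole-newborn array the summed urothelial signal was 14580 against 120240 to 157700 in the bladders, and the summed liver signal was 482980 against 2000 to 12503. Newborn array 3 stood apart among the bladders, with 8 of 9 liver markers above its median, against 1 to 3 on each other bladder array. The part of this in the results was not tested. Adult arrays 1 and 3 also held transcripts of male accessory glands (summed signal 10434 and 10361), which were at 430 on adult array 2 and at 286 to 492 on the newborn arrays. Between the ages, the summed signal of 10 skeletal muscle markers was 18276 to 18489 in adult and 81375 to 119390 in newborn bladder, and that of 7 markers of dividing cells was 2094 to 2645 against 28048 to 50273. In whole organs, fewer cells of a type and less RNA per cell cannot be told apart.

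As background, Igf2 is a fetal growth factor that acts through the Igf1 receptor, a tyrosine kinase that also binds Igf1, and through the insulin receptor. The Igf2 receptor carries no kinase: it takes Igf2 into the cell for breakdown and sorts lysosomal enzymes. Igf2 and H19 are reciprocally imprinted neighbours on mouse chromosome 7, with Igf2 expressed from the paternal and H19 from the maternal chromosome under shared enhancers, and both are mostly shut down after birth. The Igf2bp proteins are oncofetal RNA-binding proteins that hold and stabilise mRNAs, those of Igf2 and H19 among them.

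H19 is the host of Mir675, and its RNA is the precursor of the mature microRNAs mmu-miR-675-5p and mmu-miR-675-3p. They are shown because the probe set cannot separate the long RNA from the microRNA gene; the array does not measure the mature forms. Capitals mark the seed, bases 2 to 8, and the 2 seeds differ. The sequences are those of RefSeq for build GRCm38.p6.
mmu-miR-675-5p: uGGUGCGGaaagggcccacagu
mmu-miR-675-3p: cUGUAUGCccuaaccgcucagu

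The 250 bases upstream of the annotated start were in the RefSeq promoter table for 6 of the 8 genes, with 4 windows for Igf2. A window is shown for Igf2 (1 of the 4) and Igf2bp3, whose levels fell together with age, and for Igf2r, which had no call between the ages. The Igf2r probe set with the highest mean lay above the whole newborn, and the second did not. Each window is written on the gene's own strand (here always the minus strand), 5′ to 3′, in GRCm38.p6. Capitals mark matches on either strand to the GC box GGGCGG, the E box CACGTG bound by Myc proteins, TATAAA or CCAAT.
Igf2, chr7:142657497-142657746: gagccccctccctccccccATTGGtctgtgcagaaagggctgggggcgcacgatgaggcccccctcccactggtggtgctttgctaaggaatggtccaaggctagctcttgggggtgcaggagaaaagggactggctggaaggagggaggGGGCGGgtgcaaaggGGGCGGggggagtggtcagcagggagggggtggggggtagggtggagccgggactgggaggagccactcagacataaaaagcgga
Igf2bp3, chr6:49214955-49215204: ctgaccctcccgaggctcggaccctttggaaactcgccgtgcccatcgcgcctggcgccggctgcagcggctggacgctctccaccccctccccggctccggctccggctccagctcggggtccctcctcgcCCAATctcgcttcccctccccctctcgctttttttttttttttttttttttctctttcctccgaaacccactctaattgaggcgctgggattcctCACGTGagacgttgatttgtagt
Igf2r, chr17:12769707-12769956: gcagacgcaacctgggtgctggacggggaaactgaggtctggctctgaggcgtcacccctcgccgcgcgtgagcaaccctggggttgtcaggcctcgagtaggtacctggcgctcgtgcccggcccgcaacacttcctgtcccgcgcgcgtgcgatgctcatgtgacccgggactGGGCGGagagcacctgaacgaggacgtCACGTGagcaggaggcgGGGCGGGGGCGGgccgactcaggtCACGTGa
The Igf2 window shown held 2 GC boxes and 1 CCAAT, the Igf2bp3 window 1 E box and 1 CCAAT, and the Igf2r window 3 GC boxes and 2 E boxes. It is the Igf2 window with the most matches: that at chr7:142658805-142659054 held 1 GC box, and the remaining Igf2 windows held none. Over 32851 windows of this length, 32.7% held a GC box, 6.02% the E box, 12.4% TATAAA and 33.8% CCAAT. A match is only a description of the letters, and no binding was measured.

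Igf2 fell steeply between postnatal day 1 and adulthood. Its intensity, in the linear units deposited, was 13991, 9014 and 14025 in newborn bladder and 458, 1375 and 712 in adult bladder, so every adult array lay below every newborn array. The means were 12343 ± 2883 and 848.5 ± 473 (SD, n = 3 each), a ratio of 14.5. On the log2(intensity + 49) scale used for all tests, the added 49 (the intensity under which 20% of values lie) damping low signals, Igf2 fell by 3.89 (SE 0.39; 95% interval -4.78 to -3.00; limma adjusted p = 0.00134 over all probe sets tested). The other Igf2 probe set read 6820, 3540 and 5162 in newborn and 123, 189 and 123 in adult bladder, a difference of -4.72 (SE 0.34; limma adjusted p = 0.000688). It was above the array median on the 3 newborn arrays alone, so it entered the test only through the group where it is high, left it when a newborn array was left out, and adds no support of its own. Adult bladder was not empty of the signal of the first probe set: its 3 values were all above the median of their arrays, which ranged from 226 to 312.

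H19/Mir675 fell further still. The newborn arrays read 57448, 45044 and 63811, and the adult arrays 160, 429 and 249. Every newborn array was at least 105 times the highest adult one, and the means of 55434 ± 9544 and 279 ± 137 (SD, n = 3) stood in a ratio of 199. The difference was -7.47 on the log2 scale (SE 0.34; limma adjusted p = 5.46e-05). Adult array 1 lay below its own median of 226, and the size of the fall moved between -7.00 and -7.68 with the pseudocount. The adult signal was thus close to the middle of all probe sets, whose medians on the adult arrays were 226, 312 and 234.

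The ratio of the 2 neighbours was then compared between the ages, in a test that cannot reach 0.05 with these arrays. The log2 value of Igf2 minus that of H19/Mir675 was 1.28 to 1.57 on the adult arrays and -2.31 to -2.03 on the newborn arrays, a shift of 3.58. The exact two-sided permutation test gave p = 0.1, the smallest that 3 against 3 arrays allow, and 0.1 after adjustment over the 3 pairs compared. Set against each other in the same way, Igf1 minus Igf2 moved from 0.25 to 0.88 in newborn to 3.11 to 3.69 in adult bladder, a shift of 2.88 (exact permutation p = 0.1, adjusted 0.1). These ratios between probe sets compare changes with age and do not say which transcript is the more abundant.

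**Figure D1:**
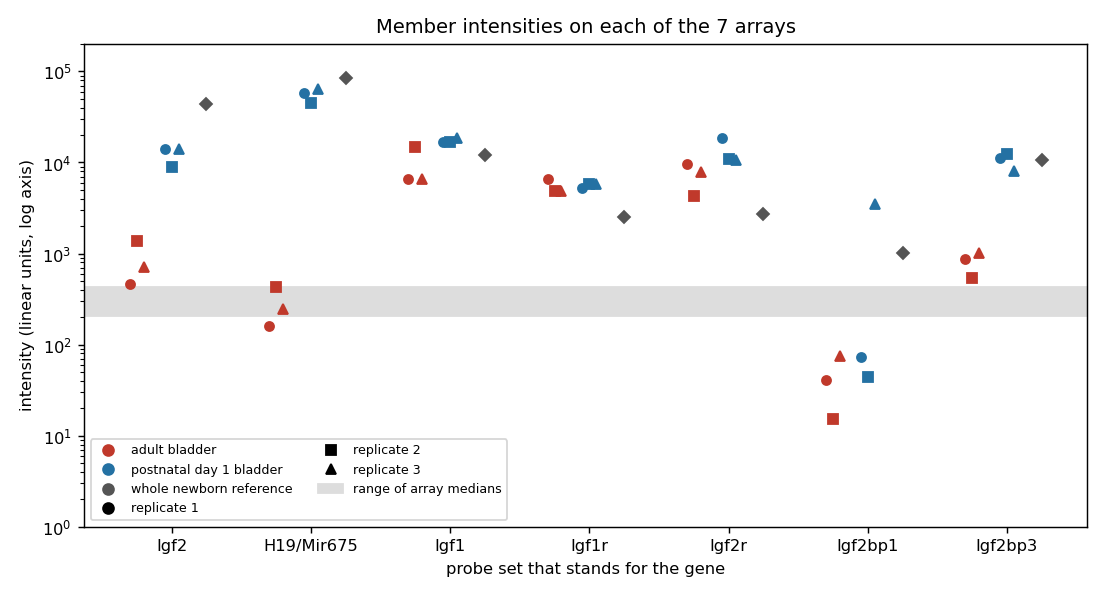
Deposited intensity (linear units on a log axis) of the probe set that stands for each gene, on each of the 7 arrays; symbols give the replicate, colours the group, and the grey band the range of array medians. Newborn H19/Mir675 lies at 45044 to 63811 against 160 to 429 in adult bladder, Igf2bp3 separates likewise, and Igf1r overlaps.

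Igf1, the ligand whose transcription after birth is driven by growth hormone in liver and by local signals elsewhere, remained well above the array medians in adult bladder. Its values were 16633, 16619 and 18803 in newborn and 6507, 14856 and 6505 in adult bladder. Adult array 2 lay close to the newborn range, and the other adult arrays lay well below it. Array 2 lacked accessory gland transcripts and also had high spike-in signal. The difference was -1.01 (SE 0.32; limma adjusted p = 0.0926) and did not pass the threshold of 0.05. Without adult array 2 it was -1.41 (adjusted p = 0.00545), and without the 2 accessory-gland arrays -0.22, so this library decides the call. A second Igf1 probe set fell by 1.35 (SE 0.26; adjusted p = 0.0153), from 10524, 12989 and 7819 to 4307, 3605 and 4077. That call was lost under 6 of 10 alternatives (each bladder array left out in turn, both accessory-gland arrays or both arrays with high spike-in signal left out, median centring, and array weights), with differences of -1.54 to -1.18. The remaining Igf1 probe sets differed by -0.57 (adjusted p = 0.529) and 0.00 (adjusted p = 0.998).

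Of the receptors, Igf1r was called by limma at 0 of its 5 probe sets, with 1 of 5 at an unadjusted p under 0.05. Among all probe sets tested, 7.85% were called. The probe set that stands for the gene read 5221, 5869 and 5741 in newborn and 6524, 4841 and 4844 in adult bladder, with the groups overlapping. Its difference was -0.07 (SE 0.24; limma adjusted p = 0.902), and the 95% interval of -0.60 to 0.47 bounds the change at this probe set in either direction. The other Igf1r probe sets gave -1.34 to 0.45.

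Igf2r, the clearance receptor for Igf2, read 18482, 10784 and 10729 in newborn and 9741, 4284 and 7823 in adult bladder. The groups did not overlap, but the lowest newborn array was only 1.10 times the highest adult one. The difference of -0.90 (SE 0.35; limma adjusted p = 0.155) did not pass the threshold, nor did that of the second Igf2r probe set (-0.78, SE 0.58; adjusted p = 0.46). Igf1r minus Igf2r shifted by 0.83 between the ages (exact permutation p = 0.1, adjusted 0.1). A further probe set, annotated to both Igf2r and its antisense neighbour Airn, read 5.25 to 26.1 over the 7 arrays, below every array median, and was not tested.

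Igf2bp3 fell about as steeply as Igf2. It read 11247, 12490 and 7962 in newborn and 871, 543 and 1018 in adult bladder, with no overlap. The means were 10566 ± 2339 and 810 ± 243 (SD, n = 3), a ratio of 13.0, and the log2 difference was -3.64 (SE 0.32; limma adjusted p = 0.000836). Of its 6 probe sets, 3 were above the array median on all 6 bladder arrays, and these were called lower at -3.65 to -2.98. Over all probe sets tested 7.85% were called, 4.12% lower in adult. The other 3 were above the median on the newborn arrays alone, so they entered the test only through the group where they are high; their differences of -3.68 to -2.97 are a description. The probe set that stands for the gene has the suffix _x_at, which the manufacturer gives to probe sets that can match other transcripts. A probe set without such a suffix read 5558, 8496 and 5344 in newborn and 775, 467 and 1188 in adult bladder, a fall of 2.98 (adjusted p = 0.00266). The count of called Igf2bp3 probe sets went from 6 to 3 of 3 tested without any 1 newborn array or without both spike-in arrays, as the other 3 left the test, and to 5 of 6 without both accessory-gland arrays.

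Igf2bp1, a paralog of Igf2bp3, was measured at low intensity; its 4 probe sets were all lower in adult bladder, at -2.41 to -1.34, but only 2 could be tested. The one with the highest mean owes it to newborn array 3 and the whole-newborn array. It read 72.6, 44.6 and 3505 in newborn bladder, 41.1, 15.1 and 75.2 in adult bladder and 1008 in the whole newborn, so its groups overlapped, and with a difference of -1.94 it was too low on too many arrays to be tested between the ages. A second probe set read 802, 456 and 1233 in newborn and 46.8, 102 and 205 in adult bladder and fell by 2.41 (SE 0.51; limma adjusted p = 0.0229). Another read 499, 707 and 780 against 30.1, 94.0 and 176 and fell by 2.36 (SE 0.48; adjusted p = 0.0195). Both calls were lost without adult array 1 and without both accessory-gland arrays, where the differences were -2.44 and -2.29. The 2 probe sets were above the array median on the newborn arrays alone and left the test when a newborn array was left out. They thus entered the test only through the group where they are high, and their differences are a description. The fourth read 95.5, 210 and 348 in newborn and 9.84, 72.0 and 80.2 in adult bladder and was not tested.

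In count, 6 of the genes could be tested between the ages, H19/Mir675 included, and 3 passed, all lower in adult bladder: Igf2, H19/Mir675 and Igf2bp3. Over all 11930 genes tested, 8.97% passed, 4.95% lower and 4.02% higher in adult, with a median difference of -0.01. In 5 of the 6 tested genes, Igf1r being the exception, all adult arrays lay below all newborn arrays, against 16.5% of all genes. The 3 calls held under all 18 alternatives, with differences of -4.30 to -3.09 for Igf2, -7.78 to -6.84 for H19/Mir675 and -4.14 to -3.40 for Igf2bp3. These differences moved together with the skeletal muscle and dividing-cell signals given above, whose part in the result was not tested. Within the adult arrays, Igf2 and H19/Mir675 were highest on array 2, where accessory gland transcripts were near the newborn level, and Igf2bp3 was lowest there. Array 2 also had high spike-in signal and the highest adult median (312 against 226 and 234). The part of these traits was not tested.

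**Figure D2:**
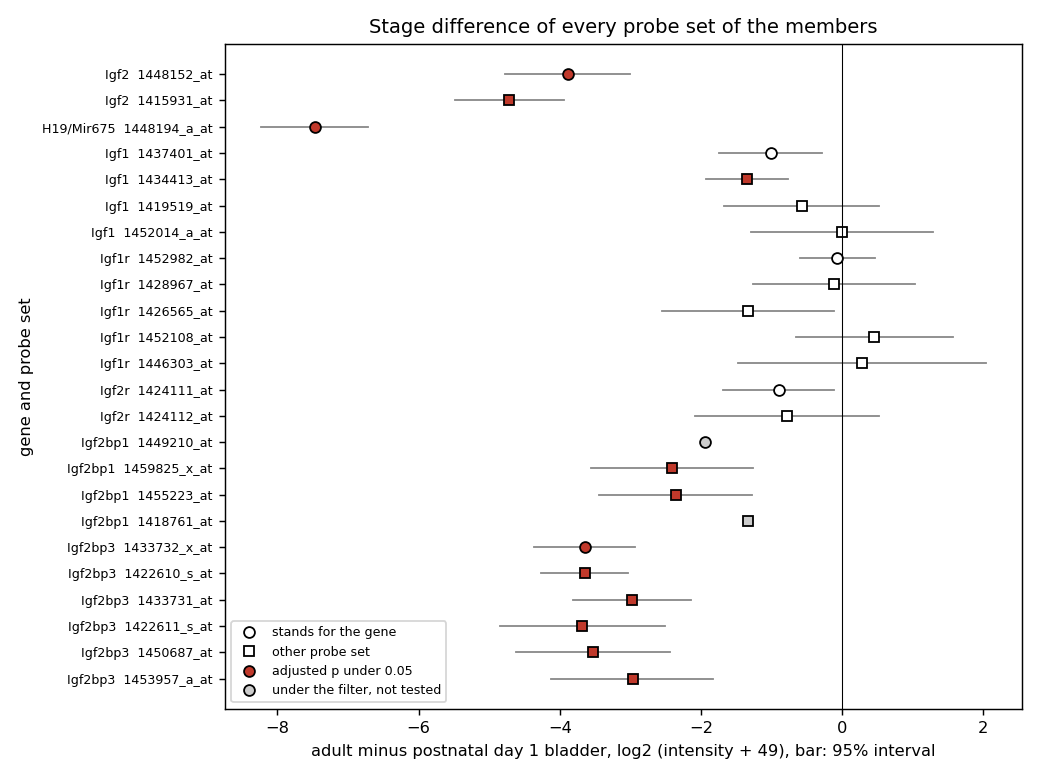
Adult minus newborn bladder difference in log2(intensity + 49) with its 95% interval, for each probe set of the genes; circles stand for the gene, filled red marks an adjusted p under 0.05, and grey symbols were not tested. Igf2bp3 probe sets lie between -3.68 and -2.97, while the 5 of Igf1r lie between -1.34 and 0.45.

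The whole-newborn array allowed a look at whether the newborn bladder level of each gene stood out from the body of the same age. It is a single array, assumed in the fit to vary like the bladders, and its median log2 value was higher, the newborn bladders lying at -0.683 relative to it. Igf2 was at 43402 in the whole newborn, and the newborn bladders reached 20.8% to 32.3% of that. The difference of -1.84 (SE 0.55; limma adjusted p = 0.0785) did not pass, while the second Igf2 probe set, at 24074 in the whole newborn, was lower by -2.26 (adjusted p = 0.0224). H19/Mir675 was at 83869 and newborn bladder at 53.7% to 76.1% of it, a difference of -0.61 (adjusted p = 0.487) that turned to 0.07 when arrays were centred on their medians. Igf2bp3 was at 10641, within the newborn bladder range, with a difference of -0.04 (SE 0.44; 95% interval -1.03 to 0.96; adjusted p = 0.974).

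The Igf2r probe set that stands for the gene read above the whole newborn. It read 2752 there and 10729 to 18482 in newborn bladder, 390% to 672% of the whole-newborn level, and the difference was 2.21 (SE 0.50; limma adjusted p = 0.0304). The call was lost without newborn array 1 (1.95, adjusted p = 0.0629), without newborn array 2 (2.33, adjusted p = 0.0529), without the variance trend (2.21, adjusted p = 0.0606) and with the mean of the probe sets (1.00, adjusted p = 0.167). The second Igf2r probe set read 3307 in the whole newborn and 3076, 1560 and 4885 in newborn bladder, a difference of -0.20 (adjusted p = 0.919), so the 2 probe sets disagree. Igf1r was at 2519 in the whole newborn and 5221 to 5869 in newborn bladder, 1.14 higher (SE 0.33; adjusted p = 0.0751), which did not pass the threshold. The other Igf1r probe sets gave 0.04, 0.66, -0.39 and -1.50 and did not pass, so they share no direction. Igf1 was at 12225 there and differed by 0.50 (adjusted p = 0.579), and the Igf2bp1 probe set that stands for the gene by -1.62 (SE 1.70; adjusted p = 0.634). Without newborn array 3 that probe set gave -3.31 (adjusted p = 0.0235), while the other Igf2bp1 probe sets gave 0.07, 0.39 and -0.02 over all arrays and did not pass.

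Against the same whole newborn, adult bladder held 1.06% to 3.17% of the Igf2 signal, 0.190% to 0.512% of the H19/Mir675 signal and 5.10% to 9.56% of the Igf2bp3 signal. The differences were -5.73 (limma adjusted p = 0.000477), -8.08 (adjusted p = 6.90e-05) and -3.68 (adjusted p = 0.00126). Igf1 (-0.51, adjusted p = 0.534), Igf1r (1.07, adjusted p = 0.0723), Igf2r (1.31, adjusted p = 0.129) and Igf2bp1 (-3.56, adjusted p = 0.22) did not pass. The other Igf1r probe sets gave -0.09, -0.68, 0.06 and -1.22 and the second Igf2r probe set -0.99, and none of these passed. So 1 of 7 genes passed between newborn bladder and whole newborn and 3 of 7 between adult bladder and whole newborn, against 9.58% and 15.3% of all genes tested. By direction, 3.19% of genes were higher and 6.39% lower in newborn bladder than in the whole newborn, and 6.1% higher and 9.23% lower in adult bladder. Both comparisons share the single whole-newborn array, so they are not independent of each other.

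**Figure D3:**
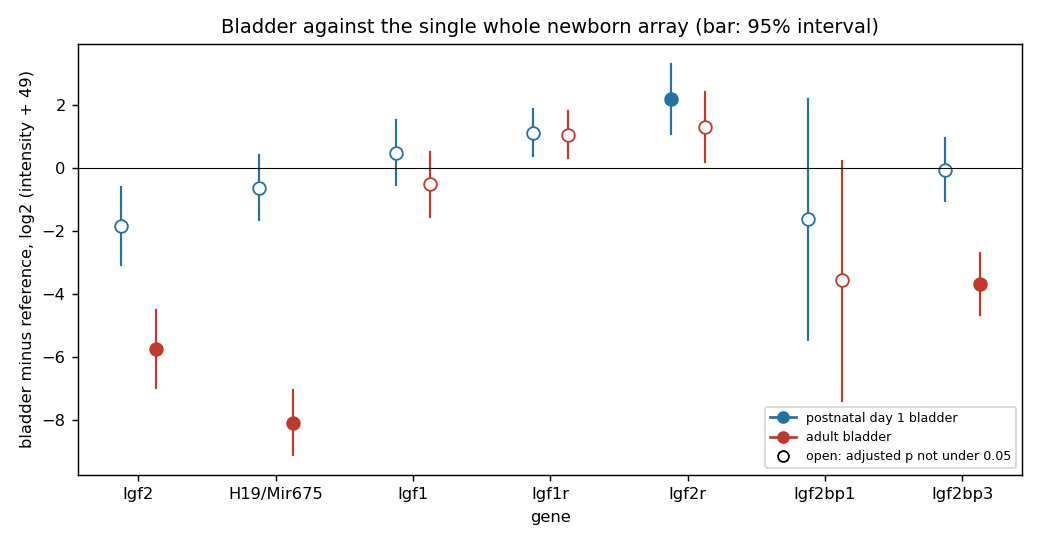
Newborn (blue) and adult (red) bladder minus the whole-newborn array in log2(intensity + 49), with 95% intervals; filled points had an adjusted p under 0.05. For Igf2bp3 the newborn point lies at -0.04 and the adult point at -3.68, and Igf2r is the one gene whose newborn point is filled, at 2.21.

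Of 31 tested genes of IGF receptor signalling, 3 were lower and 2 higher in adult bladder, and the rest did not pass; the median difference was -0.04. Over all genes tested 8.97% were called. Grb10, an imprinted adaptor that damps signalling from the insulin and Igf1 receptors, fell by 1.88 (SE 0.19; limma adjusted p = 0.00134), from 41318 ± 4797 to 11164 ± 973 (SD, n = 3). Irs4, an adaptor of the insulin receptor substrate family, fell by 3.55 (SE 0.45, adjusted p = 0.0029), from 1228 ± 528 to 52.8 ± 12.7. It is counted among the 3 lower genes, but left the test when a newborn array was left out. Irs4 thus entered the test only through the group where it is high, and its difference is a description. Irs1, the main adaptor of the Igf1 receptor in many cells, fell by 1.09 (SE 0.27; adjusted p = 0.0415). Pik3r1, a regulatory subunit of phosphoinositide 3-kinase, rose by 1.35 (SE 0.27; adjusted p = 0.0188), and Grb14, an adaptor related to Grb10, rose by 1.16 (SE 0.27; adjusted p = 0.0317). The Grb10 call held in all 10 alternatives, those of Irs1 and Grb14 were lost in 7 each and that of Pik3r1 in 4, and the count of called genes ran from 1 to 9.

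Of 11 tested IGF binding proteins and their proteases, 2 were lower and 1 higher in adult bladder, and the median was -0.08. Among all genes tested, 4.95% were lower and 4.02% higher in adult bladder. The count of called genes in this list ran from 1 to 5 over the alternatives. Pappa2 and Pappa, metalloproteinases that free IGFs by cutting binding proteins, fell by 2.59 (SE 0.42; limma adjusted p = 0.0078; 1887 ± 500 to 286 ± 142) and by 1.48 (SE 0.32; adjusted p = 0.0254). Htra1, a secreted serine protease, rose by 1.27 (SE 0.23; adjusted p = 0.0121; 15705 ± 3191 to 38131 ± 8525). Of the binding proteins, Igfbp3 differed by -1.13 (adjusted p = 0.0514), Igfbp6 by 1.35 (adjusted p = 0.062), Igfbp5 by -0.54, Igfbp4 by 0.22, Igfbp2 by -0.40 and Igfbp7 by -0.08, and none of these passed. The Pappa call was lost in 6 of 10 alternatives and the Pappa2 and Htra1 calls in 1 each. Igfbp1, a liver product, was at 67836 in the whole newborn and averaged 202 in newborn bladder. Of the other ligands and receptors, the insulin receptor Insr (0.77, adjusted p = 0.0997) and the growth hormone receptor Ghr (0.21, adjusted p = 0.666) did not pass.

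Of 13 tested genes that are known to regulate Igf2, H19 or the Igf2bp genes, 6 were lower and 0 higher in adult bladder by limma (7 and 0 at an unadjusted p under 0.05), with a median of -1.19. Among all genes tested, 4.95% were lower and 4.02% higher in adult bladder. Plagl1, an imprinted zinc-finger factor that can activate Igf2 and H19, fell by 1.60 (SE 0.18; limma adjusted p = 0.00181), from 50797 ± 4048 to 16711 ± 1851 (SD, n = 3). Hmga2, a fetal chromatin protein and activator of Igf2bp2, fell by 4.07 (SE 0.63; adjusted p = 0.00683), and Dnmt1, the maintenance DNA methyltransferase, by 1.73 (SE 0.26; adjusted p = 0.0065). Mycn fell by 2.34 (adjusted p = 0.00922), Myc by 1.49 (adjusted p = 0.0174) and Dnmt3b by 1.29 (adjusted p = 0.0448). Hmga2 and Mycn, counted among the 6, left the test when a newborn array was left out. Both entered it only through the group where they are high, and their differences are a description. Ctcf, the insulator protein of the imprinting control region between Igf2 and H19, differed by -0.28 (adjusted p = 0.569). Plagl1 held in all 10 alternatives, while Dnmt3b was lost in 9 and Myc in 6, and with both accessory-gland arrays left out Plagl1 was the 1 gene called. Between newborn bladder and whole newborn limma called 0 of 14 genes of this list, with 1 at an unadjusted p under 0.05. Over all genes tested there, 9.58% were called. In adult bladder 6 of 14 were lower than in the whole newborn, against 9.23% of all genes tested. Dnmt1 is high in dividing cells, whose markers were lower in adult bladder in 7 of 7, and the part of that in these values was not tested.

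Most genes near Igf2 and H19 did not pass the test, which also holds for all genes tested, with 4.95% lower and 4.02% higher in adult bladder. Of 16 tested distal chromosome 7 neighbours, 3 were lower and 0 higher in adult bladder by limma (6 and 0 at an unadjusted p under 0.05), with a median of -0.29. Cdkn1c, the imprinted growth-restraining cyclin kinase inhibitor, fell by 3.80 (SE 0.38; limma adjusted p = 0.00128). Tnnt3, a fast skeletal muscle troponin that lies next to this cluster, fell by 4.50 (SE 0.36; adjusted p = 0.000804) and is itself 1 of the skeletal muscle markers. Lsp1, a leukocyte protein, fell by 1.54 (adjusted p = 0.0092). Tnnt3, counted among the 3, left the test when a newborn array was left out. It entered only through the group where it is high, and its difference is a description. Of 17 tested genes of the imprinted growth network, 8 were lower and 1 higher, with a median of -1.25, Cdkn1c, Grb10 and Plagl1 being counted here too. The shares over all genes are again 4.95% lower and 4.02% higher. Slc38a4, an amino acid transporter, fell by 3.73 (adjusted p = 0.0014) and Dlk1, a fetal Notch-family ligand, by 3.82 (adjusted p = 0.00165). Dlk1, like Tnnt3, left the test when a newborn array was left out, so its difference is a description too. Impact, a regulator of translation under stress, rose by 1.13 (adjusted p = 0.0363), a call lost in 7 of 10 alternatives.

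**Figure D4:**
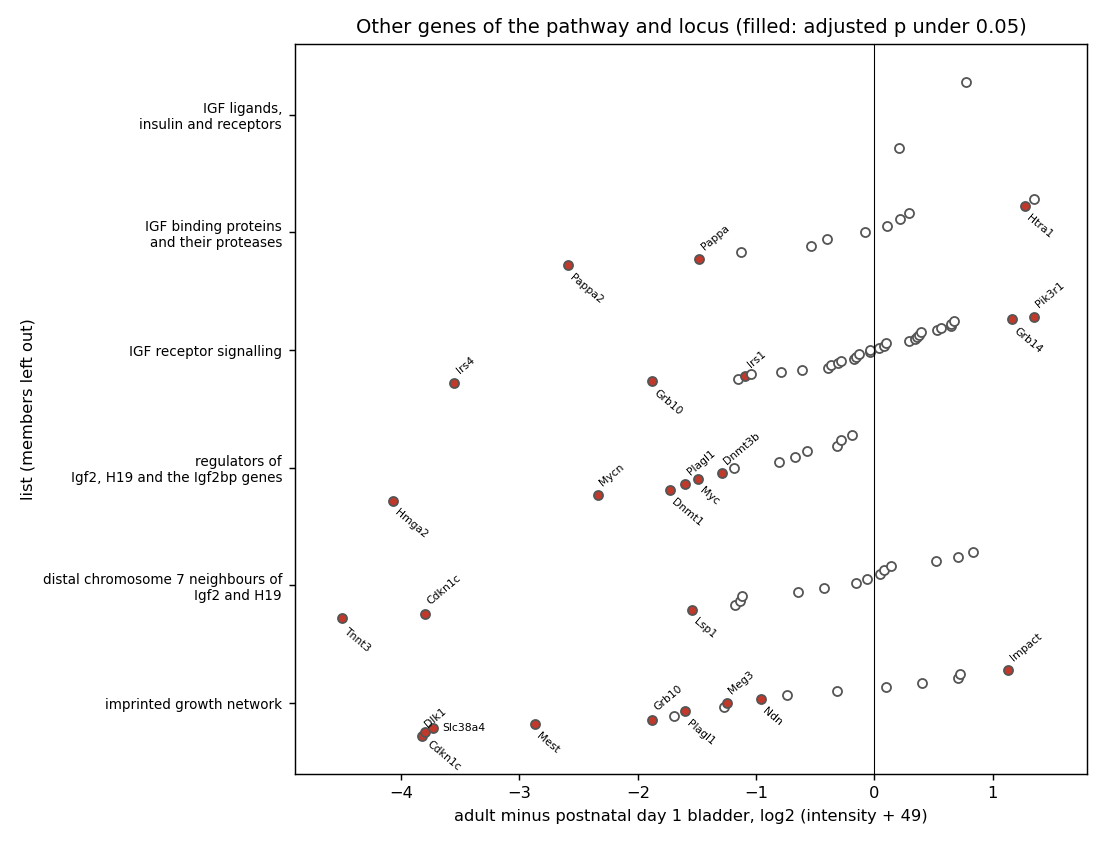
Adult minus newborn bladder difference in log2(intensity + 49) of each tested gene of 6 lists (1 point a gene, spread vertically by rank); filled points had an adjusted p under 0.05 and are named. All 13 tested regulators lie below 0, and the median over all genes tested is -0.01. Receptor signalling runs from Irs4 at -3.55 to Pik3r1 at 1.35. Hmga2, Mycn and Irs4 entered the test only through the newborn arrays, where they are high.

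The genes whose profile over the 7 arrays was most like that of Igf2 were found by the root mean square difference of log2 values after each gene's own mean was taken off, over 14145 genes. The nearest were Dlk1 at 0.40, Cdkn1c at 0.44, Tnnt3 at 0.45, Hdc (histidine decarboxylase, which makes histamine) at 0.48 and Hmga2 at 0.51, against a median of 2.3 for all genes. Dlk1 read 2786, 1759 and 2479 in newborn bladder, 55.5, 222 and 115 in adult bladder and 3891 in the whole newborn, the same order of arrays as Igf2 within the adults. Hdc and Hmga2 were near the floor in adult bladder, at 6.66, 13.1 and 16.1 and at 7.57, 80.0 and 4.04. Apart from Hmga2 on adult array 2, these lie below the pseudocount of 49, which damps their falls. The linear means fell from 855 to 11.9 and from 1414 to 30.5, against 12343 to 848.5 for Igf2. Their nearness to Igf2 thus depends on the pseudocount, and ranks under other pseudocounts were not tested. Igf2bp3 ranked 59 at 0.98 and Igf1 ranked 1800 at 1.89. Nearest to H19/Mir675 were Fbn2, an embryonic fibrillin, at 0.91, Tnnc2, a fast muscle troponin, at 0.98, Krt14, a basal keratin, at 1.28, Dcx, a neuronal microtubule protein, at 1.28 and Myh8, the perinatal myosin heavy chain, at 1.32, against a median of 3.8. Adult Dcx read 8.84, 12.2 and 5.90, all below the pseudocount, so its nearness to H19/Mir675 has the same limit. Adult Myh8 read 105, 13.2 and 45.3, and adult Krt14 13.0, 350 and 66.5, so both are below it in part. Igf2 itself ranked 16 for H19/Mir675, at 1.67. Fbn2 read 29047, 24562 and 25630 in newborn bladder, 241, 85.7 and 265 in adult bladder and 17160 in the whole newborn. These are descriptions over 7 arrays that fall into 3 groups.

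**Figure D5:**
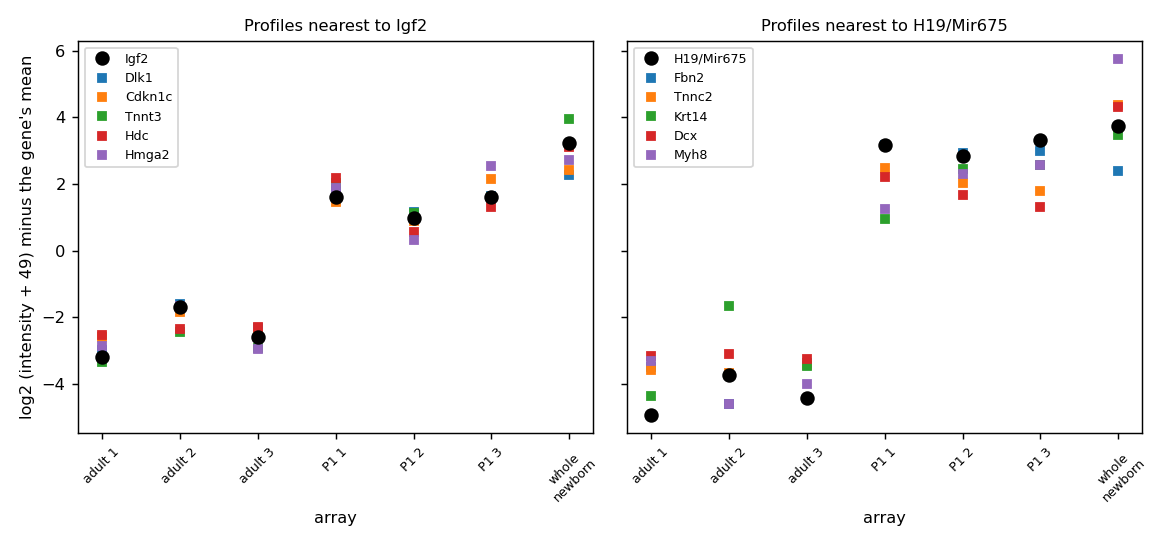
Log2(intensity + 49) minus each gene's mean over the 7 arrays, for Igf2 (left) and H19/Mir675 (right) with the 5 genes of nearest profile. Hdc and Dcx read below the added 49 on every adult array, and Hmga2 on adult arrays 1 and 3. On the left the whole newborn stands highest and adult array 1 lowest for Igf2; on the right the newborn bladders and whole newborn stand together for H19/Mir675, and Krt14 departs on adult array 2.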

How the data were processed

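Total RNA of the 7 samples was amplified in 2 rounds and hybridised to single-colour mouse arrays, per the labels' protocols. The deposited values are linear intensities per probe set, made by the authors with GCOS per the submitters' processing notes (version not given in the sources used here). On every array their 2% trimmed mean was 1500.01, so the deposited intensities were scaled per array. With no depth behind an intensity, the number of arrays limits the precision.

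Of 45101 probe sets, 64 controls were left out. 34945 name 1 gene in the platform annotation, 932 several and 9160 none. Values were analysed as log2(intensity + 49), 49 being the 20th percentile, without centring. limma 3.58.1 (R 4.3.3; lmFit, eBayes with trend) was fitted to the 6 bladder arrays, on probe sets above their array's median on at least 3, and to all 7 arrays in 3 groups for the whole newborn, above the median on at least 1 of the arrays compared. P-values were two-sided and Benjamini-Hochberg adjusted over all probe sets tested, with a threshold of 0.05. The fits were tested on simulated data. Members and lists were chosen with earlier results of these data known. Named genes are the members, up to 4 called genes of a list by smallest adjusted p and those against its majority, and the 5 nearest profiles; other names were chosen after their values were seen. Alternatives leaving out arrays for probe set and list counts were chosen after seeing the data. Adult arrays 1 and 3 (accessory gland) and adult 2 with newborn 3 (spike-in signal) were left out together as alternatives.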

Additional observations from a re-analysis of the deposited data

How the results depend on the processing

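The 3 calls between the ages (Igf2, H19/Mir675 and Igf2bp3) held under all 18 alternatives, with 3 to 4 genes called. Igf1r, not called, turned from -0.07 to 0.00 without adult array 2 or 3 (-0.21 to 0.00 over the single arrays left out) and to 0.02 without both spike-in arrays. Between newborn bladder and whole newborn the count of 1 became 2 with median centring, 0 without the variance trend, 3 with array weights, and 0 to 2 as single bladder arrays were left out. None of the values that turned sign there was called: Igf2bp3 was 0.65 and H19/Mir675 0.07 with centring, Igf2bp3 0.18, Igf1 -0.10 and Igf1r -0.01 with the mean of the probe sets, and Igf2bp3 0.15 without newborn array 3. Between adult bladder and whole newborn the count of 3 became 5 with array weights and 3 to 6 over the single arrays left out, 6 without adult array 2. Igf1 turned to 0.16 with centring and 0.28 without both accessory-gland arrays, and Igf1r to -0.17 with the mean of the probe sets. Genes called between the ages ran from 292 (without both accessory-gland arrays) to 2605 (array weights) around 1070; 400 to 641 were called where adult 1, adult 3 or 1 newborn array was left out. Against the whole newborn they ran from 910 to 2351 around 1317 for newborn and from 824 to 4595 around 2071 for adult bladder. The pair shifts ran from 3.30 to 3.72, 2.70 to 3.06 and 0.52 to 0.99. The causes were not tested. Where an array is left out, fewer arrays enter the test, and 1 adult array is assumed to vary like the newborn ones where both accessory-gland arrays are left out. No paired analysis was possible because each bladder sample was the whole organ of 1 male, so no animal was measured at both ages. The comparison of Igf2bp3 with Igf2bp2 was not run.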

Other observations

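The summed signal of 6 macrophage and leukocyte markers was 17783 to 35833 in adult and 5711 to 9780 in newborn bladder, and 40763 in the whole newborn. Lsp1, a leukocyte protein encoded beside Igf2 and H19, was the higher in newborn bladder, at 4795 ± 772 (SD, n = 3) in newborn and 1601 ± 118 in adult bladder, and at 914 in the whole newborn. The smooth muscle signal overlapped between the ages, at 241380 to 387590 in adult and 245820 to 326680 in newborn bladder. The 5 cartilage markers summed to 404 to 475 in adult, 783 to 1626 in newborn bladder and 27536 in the whole newborn.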
